A study of Mus musculus with 9 samples.

Results

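The 10 genes described here are Nfe2l2, which encodes the transcription factor NRF2, its inhibitor Keap1, and 8 classic antioxidant targets of NRF2, namely Gclc, Gclm, Gsr, Txnrd1, Srxn1, Nqo1, Hmox1 and Osgin1. They were picked by symbol, as NRF2, its inhibitor and known targets, with earlier results of these data known, so their count of falls is not free of that choice. They come from tables of 23282 gene rows, and all 10 passed the filter on low values that kept 13481 genes for testing. The tables hold 3′ mRNA sequencing of whole kidney from C57BL/6 mice in 2 groups: 5 libraries from Bmal1 KO mice and 4 from wild type (WT) mice. Bmal1, listed in the tables under the symbol Arntl, is the transcription factor that pairs with CLOCK or NPAS2 and runs the circadian clock by binding E-boxes. The labels name no allele, promoter or Cre driver for the knockout, and no hour of sampling, sex, age or treatment. Whether every library stands for its own animal is not stated, so the p-values reflect variation among libraries, part of which may be technical.

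In resting cells KEAP1 holds NRF2 in the cytoplasm and directs it to ubiquitination and breakdown, and oxidants or electrophiles that modify KEAP1 cysteines let NRF2 accumulate. NRF2 then pairs with a small MAF protein on antioxidant response elements and drives genes for glutathione synthesis and recycling, the thioredoxin system, NADPH supply, quinone and heme breakdown and detoxification. Because NRF2 is governed mainly at the protein level, its own mRNA level does not show its activity. In the kidney, proximal tubule cells are rich in mitochondria and in glutathione metabolism, and they are a main site of oxidant injury.

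In Bmal1 KO kidneys, 5 of the 10 genes fell (Gclm, Gsr, Txnrd1, Hmox1 and Osgin1) and none rose. Over all 13481 tested genes, 8.2% were lower and 6.16% higher at the same threshold, an adjusted p under 0.05 from limma with Benjamini-Hochberg adjustment over all tested genes. Among the other 5, Nfe2l2, Keap1, Gclc, Srxn1 and Nqo1 did not pass. The median log2 fold change of the 10 genes (Bmal1 KO minus WT) was -0.38, beside 2e-04 over all tested genes. A value here is log2(x + 1) as the authors deposited it, with x read here as an adjusted read count. How they adjusted it was not given. A fold change is a difference between such values.

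The promoters of the genes are shown for the elements through which NRF2 is known to act. RefSeq windows of 250 bases before to 50 bases after a transcription start (build GRCm38.p6) were at hand for 7 of the 10 genes, with 3 start sites for Txnrd1, and not for Hmox1, Gclc and Gsr. Searched on both strands were TGACNNNGC, the core of the antioxidant response element, TGANTCAGC, a form also bound by MAF dimers, and CACGTG, the E-box bound by BMAL1 with CLOCK. TGANTCAGC was added after these promoters had been read, and it can overlap the other form, since TGAC followed by TCAGC fits both. The 4 windows below, written 5′ to 3′ in the direction of transcription with the matches in capitals, belong to 3 genes that fell and to Srxn1.
Gclm, chr3:122245307-122245606, plus strand: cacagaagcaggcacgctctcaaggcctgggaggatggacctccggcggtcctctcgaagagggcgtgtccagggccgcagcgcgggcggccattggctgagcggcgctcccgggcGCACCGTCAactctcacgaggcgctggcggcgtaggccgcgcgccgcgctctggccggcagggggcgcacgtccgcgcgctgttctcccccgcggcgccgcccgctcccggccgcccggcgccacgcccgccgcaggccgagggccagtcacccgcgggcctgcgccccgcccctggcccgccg
Osgin1, chr8:119436897-119437196, plus strand: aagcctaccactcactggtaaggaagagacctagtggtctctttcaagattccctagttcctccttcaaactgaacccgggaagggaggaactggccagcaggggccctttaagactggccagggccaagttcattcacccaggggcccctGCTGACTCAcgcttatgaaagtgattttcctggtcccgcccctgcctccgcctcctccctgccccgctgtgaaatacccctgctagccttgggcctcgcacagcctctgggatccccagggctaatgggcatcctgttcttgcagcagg
Txnrd1, chr10:82858956-82859255, plus strand: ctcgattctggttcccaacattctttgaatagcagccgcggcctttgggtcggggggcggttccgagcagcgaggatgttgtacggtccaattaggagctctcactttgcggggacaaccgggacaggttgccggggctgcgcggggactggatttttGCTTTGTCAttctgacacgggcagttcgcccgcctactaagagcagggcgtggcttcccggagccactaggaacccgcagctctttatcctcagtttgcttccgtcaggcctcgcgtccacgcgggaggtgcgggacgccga
Srxn1, chr2:152105274-152105573, plus strand: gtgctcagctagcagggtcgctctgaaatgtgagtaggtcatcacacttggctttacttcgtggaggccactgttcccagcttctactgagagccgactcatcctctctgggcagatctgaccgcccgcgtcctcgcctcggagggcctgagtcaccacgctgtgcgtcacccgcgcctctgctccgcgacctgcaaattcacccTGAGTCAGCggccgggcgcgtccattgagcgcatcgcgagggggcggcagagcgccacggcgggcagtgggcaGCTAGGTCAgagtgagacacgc

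In the Gclm window the match GCACCGTCA begins 134 bases before the start, in Osgin1 GCTGACTCA begins 99 bases before it, and in this Txnrd1 window GCTTTGTCA begins 92 bases before it. Srxn1 holds TGAGTCAGC beginning 45 bases before the start and GCTAGGTCA 29 bases after it. The Nfe2l2 window (chr2:75704614-75704913, minus strand) holds TGACTCCGC beginning 240 bases before the start. Neither form was found in the windows of Nqo1 and Keap1 or in the other 2 of Txnrd1. The core matched in 4 of the 7 genes and either form in 5, and the E-box in 0. Of all 27025 genes with such a window, 14.0% held the core, 1.37% held TGANTCAGC, 14.7% held either, and 8.09% held the E-box. A match describes letters in a window of 300 bases and is not evidence of a bound site.

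Adjusted counts summed to 11765219 to 12936926 per Bmal1 KO library and 12407284 to 13486444 per WT library, and the depth before any adjustment is unknown. Arntl itself stood at 5.954, 5.647, 5.985, 5.802 and 5.862 in Bmal1 KO libraries 1 to 5, against 6.680, 6.263, 7.059 and 6.762 in WT libraries 1 to 4, without overlap. The log2 fold change was -0.84 (SE 0.21, adjusted p = 0.0112 by limma), but without WT library 3 it was -0.72 (adjusted p = 0.0553), and a model that held the Rn45s share gave -0.69 (0.0877). A 3′ tag does not show whether an exon elsewhere in the gene was deleted. The 45S ribosomal RNA precursor Rn45s took 6.83% to 14.4% of the adjusted count in Bmal1 KO libraries and 5.07% to 11.3% in WT libraries, and globin genes took 0.848% to 3.36% in Bmal1 KO libraries and 0.585% to 1.46% in WT libraries. The summed level of 12 proximal tubule marker genes, most of it from the androgen-regulated gene Kap, was 35806 to 37730 CPM (adjusted counts scaled to a common library total) in Bmal1 KO libraries and 48563 to 59812 CPM in WT libraries. In whole tissue, fewer cells of a type and less RNA per cell cannot be told apart, and the part of these differences in the results that follow was not tested except where stated.

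**Figure D1:**
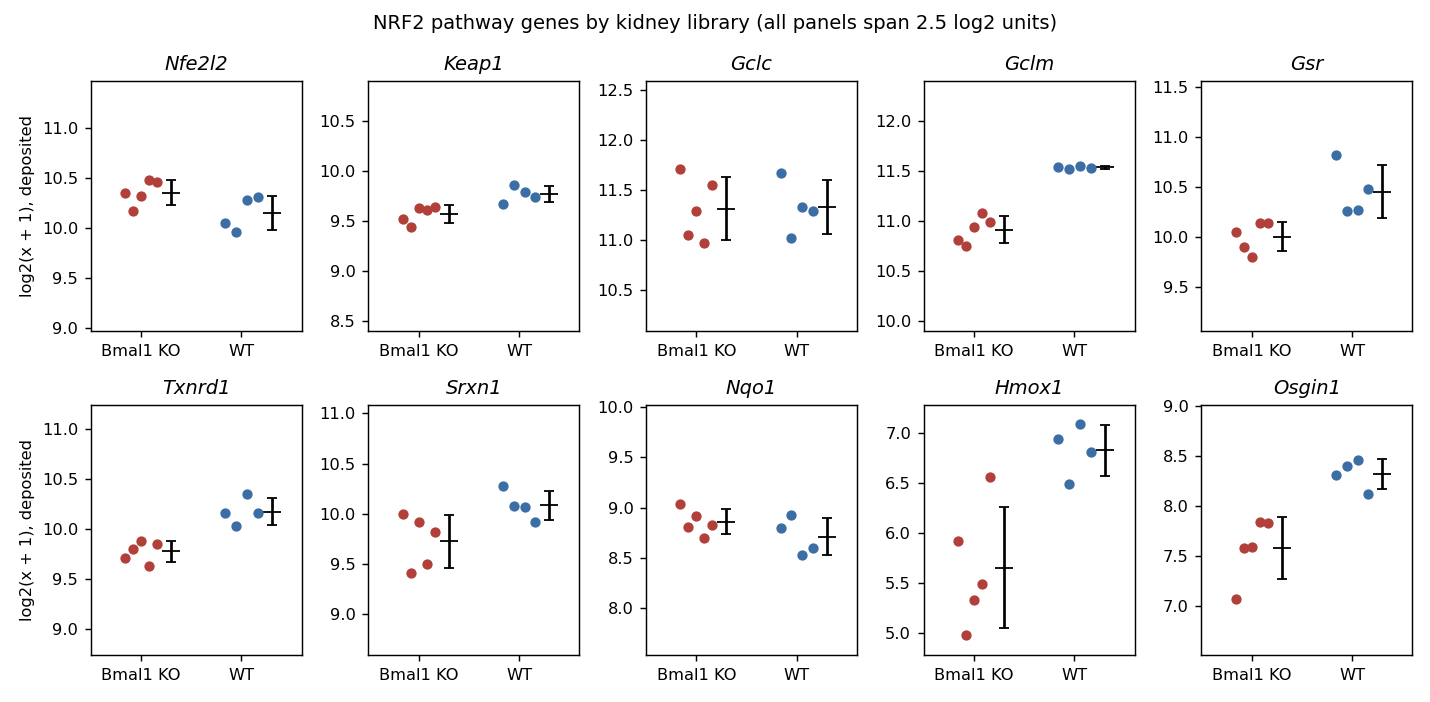
Deposited log2(x + 1) values of the 10 genes (vertical axes) in each library, with Bmal1 KO (5 libraries) left of WT (4 libraries) and bars for the group means. For Gclm, Osgin1, Txnrd1 and Gsr every Bmal1 KO library lies below every WT library, and for Hmox1 Bmal1 KO library 5 at 6.554 lies above WT library 2 at 6.482.

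Nfe2l2 (chr2:75675513-75704641, minus strand; gene positions here and below are from GENCODE M21 on GRCm38) had values of 10.354, 10.170, 10.321, 10.481 and 10.458 in Bmal1 KO libraries 1 to 5, against 10.048, 9.961, 10.286 and 10.310 in WT libraries 1 to 4. The means were 10.36 ± 0.12 (SD, n = 5) in Bmal1 KO and 10.15 ± 0.17 (SD, n = 4) in WT. Most Bmal1 KO values lay above the WT ones, but Bmal1 KO library 2 lay below WT libraries 3 and 4. The log2 fold change of 0.21 (SE 0.11, 95% interval -0.02 to 0.43) did not pass the test (adjusted p = 0.234 by limma). Nfe2l2 mRNA was thus not detectably lower in the kidneys in which 5 of the genes fell.

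Keap1 (chr9:21229730-21239361, minus strand), the inhibitor, had values of 9.524, 9.441, 9.637, 9.615 and 9.646 in Bmal1 KO libraries, against 9.676, 9.864, 9.796 and 9.747 in WT libraries. Every Bmal1 KO value lay below every WT value, but by little, and the log2 fold change of -0.20 (SE 0.10, interval -0.41 to 0.01) did not pass (adjusted p = 0.210). Of all tested genes, 8.46% were lower and 5.86% higher in Bmal1 KO without overlap. A single scaling factor per library leaves the distance between 2 genes in that library nearly unchanged. Therefore 6 such distances were tested by exact permutation of the genotype labels (126 arrangements), in which the smallest possible p is 0.00794. They were not recomputed under other scalings, and the kind of adjustment the authors made is unknown. In these distances Gclm, Hmox1, Txnrd1 and Gsr are genes already called lower, and Nfe2l1 is a gene called higher. The distances that hold them are therefore not independent of those calls. Nfe2l2 exceeded Keap1 by 0.78 ± 0.075 (SD, n = 5) in Bmal1 KO and by 0.38 ± 0.20 (SD, n = 4) in WT on the log2 scale. This distance was wider by 0.40 (SE 0.11) in Bmal1 KO, with every Bmal1 KO library above every WT library (two-sided exact permutation p = 0.00794, 0.0238 adjusted over the 6).

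Glutathione is made by glutamate-cysteine ligase, a dimer of the catalytic subunit GCLC and the modifier subunit GCLM. The modifier subunit mRNA fell and the catalytic one did not pass the test. Gclm (chr3:122245557-122270732, plus strand) had values of 10.811, 10.749, 10.946, 11.081 and 10.988 in Bmal1 KO libraries, against 11.544, 11.523, 11.552 and 11.536 in WT libraries. The 4 WT values were nearly the same, and all 5 Bmal1 KO values lay well below them. Gclm fell by 35.1% (log2 fold change -0.62, SE 0.096, adjusted p = 0.000222 by limma), the smallest adjusted p among the 10 genes.

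Gclc (chr9:77754535-77794485, plus strand) had values of 11.712, 11.058, 11.294, 10.974 and 11.552 in Bmal1 KO libraries, against 11.674, 11.021, 11.336 and 11.299 in WT libraries. Both groups spread over the same range, with means of 11.32 ± 0.31 (SD, n = 5) in Bmal1 KO and 11.33 ± 0.27 (SD, n = 4) in WT. The log2 fold change was -0.01 (SE 0.15, interval -0.33 to 0.30, adjusted p = 0.963), and its sign was positive under 4 of the other scalings and covariates tried. Within a library, Gclm minus Gclc averaged -0.40 ± 0.37 (SD, n = 5) in Bmal1 KO and 0.21 ± 0.26 (SD, n = 4) in WT. The difference between the genotypes was -0.61 (SE 0.21, two-sided exact permutation p = 0.0397, 0.0476 adjusted over the 6), and the ranges overlapped, at -0.90 to 0.11 in Bmal1 KO and -0.13 to 0.50 in WT.

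Gsr (chr8:33652523-33698163, plus strand) encodes glutathione reductase, which returns oxidized glutathione to its reduced form with NADPH. It had values of 10.049, 9.904, 9.805, 10.142 and 10.139 in Bmal1 KO libraries, against 10.818, 10.259, 10.271 and 10.480 in WT libraries. The groups did not overlap, and WT library 1 stood above the other WT libraries. Gsr fell by 26.8% (log2 fold change -0.45, SE 0.12, adjusted p = 0.0207 by limma). This call was lost without WT library 1 (-0.33, adjusted p = 0.0804) and, more narrowly, without WT library 4 (0.0536), Bmal1 KO library 2 (0.0539) or Bmal1 KO library 3 (0.0601).

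Thioredoxin reductase and sulfiredoxin keep the thioredoxin and peroxiredoxin systems reduced. Txnrd1 (chr10:82833951-82897712, plus strand), the cytosolic thioredoxin reductase, had values of 9.710, 9.801, 9.885, 9.634 and 9.847 in Bmal1 KO libraries, against 10.156, 10.031, 10.350 and 10.160 in WT libraries. The groups did not overlap, and WT library 3 was the highest. Txnrd1 fell by 24.2% (log2 fold change -0.40, SE 0.10, adjusted p = 0.0140 by limma), and without WT library 3 the change was -0.34 (adjusted p = 0.0553). Txnrd2, the mitochondrial reductase, which is not a classic NRF2 target, averaged 7.63 ± 0.21 (SD, n = 5) in Bmal1 KO and 7.44 ± 0.079 (SD, n = 4) in WT (0.19, SE 0.15, adjusted p = 0.456). Within a library, Txnrd1 exceeded Txnrd2 by 2.15 ± 0.21 in Bmal1 KO and by 2.74 ± 0.080 in WT. This distance was narrower by 0.59 in Bmal1 KO (difference -0.59, SE 0.10) without overlap (exact permutation p = 0.00794, 0.0238 adjusted over the 6). Against Gsr, Txnrd1 showed no detectable shift, with a difference of 0.05 (SE 0.18, exact permutation p = 0.778).

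Srxn1 (chr2:152105516-152111376, plus strand), the sulfiredoxin that repairs overoxidized peroxiredoxins, had values of 9.993, 9.402, 9.917, 9.491 and 9.814 in Bmal1 KO libraries, against 10.273, 10.073, 10.065 and 9.912 in WT libraries. Bmal1 KO libraries 1 and 3 lay above the lowest WT library, and the others lay below all WT libraries. The log2 fold change of -0.36 (SE 0.13, interval -0.63 to -0.08) did not pass the test (adjusted p = 0.0770 by limma), and without Bmal1 KO library 1 it was -0.42 with an adjusted p of 0.0394.

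Nqo1 (chr8:107388225-107403206, minus strand), the quinone reductase often used as a readout of NRF2, had values of 9.033, 8.805, 8.911, 8.699 and 8.830 in Bmal1 KO libraries, against 8.795, 8.923, 8.521 and 8.595 in WT libraries. WT library 2 stood among the highest Bmal1 KO values. The log2 fold change was 0.15 (SE 0.12, interval -0.11 to 0.40, adjusted p = 0.477), so the interval excludes a fall of the size measured for Gclm.

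Hmox1 (chr8:75093621-75100589, plus strand), the inducible heme oxygenase that opens the heme ring, had values of 5.911, 4.975, 5.330, 5.483 and 6.554 in Bmal1 KO libraries, against 6.931, 6.482, 7.080 and 6.803 in WT libraries. It was the lowest expressed of the 10 genes, at x of 30.5 to 134, and Bmal1 KO library 5 lay just above WT library 2 while the other Bmal1 KO libraries lay below all WT libraries. Hmox1 fell by 55.7% (log2 fold change -1.17, SE 0.28, adjusted p = 0.00795 by limma), the largest fold change among the 10. Hmox2, the constitutive heme oxygenase, averaged 10.37 ± 0.16 (SD, n = 5) in Bmal1 KO and 10.34 ± 0.23 (SD, n = 4) in WT (adjusted p = 0.914). Within a library, Hmox1 minus Hmox2 averaged -4.72 ± 0.65 in Bmal1 KO and -3.52 ± 0.17 in WT, without overlap. The genotypes differed by -1.20 (SE 0.30, exact permutation p = 0.0159, 0.0317 adjusted over the 6).

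Hmox1 is also expressed by macrophages that clear red cells. Of 7 tested macrophage markers, Csf1r was lower (-0.48, adjusted p = 0.00436 by limma) and the others did not pass, and the summed level of the list was 102 to 129 CPM in Bmal1 KO libraries and 119 to 138 CPM in WT libraries. Cd163, the hemoglobin scavenger receptor of macrophages, was below the filter. None of the 6 red cell markers passed the test, although their median log2 fold change was 0.81, and all 6 were higher without WT library 2 and 2 of them without Bmal1 KO library 1. The part of these cells in the Hmox1 result was not tested.

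Osgin1 (chr8:119434124-119446256, plus strand), a growth inhibitor induced by oxidative stress, had values of 7.066, 7.581, 7.585, 7.835 and 7.827 in Bmal1 KO libraries, against 8.307, 8.400, 8.455 and 8.119 in WT libraries. The groups did not overlap, and Bmal1 KO library 1 was the lowest. Osgin1 fell by 40.2% (log2 fold change -0.74, SE 0.16, adjusted p = 0.00456 by limma).

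**Figure D2:**
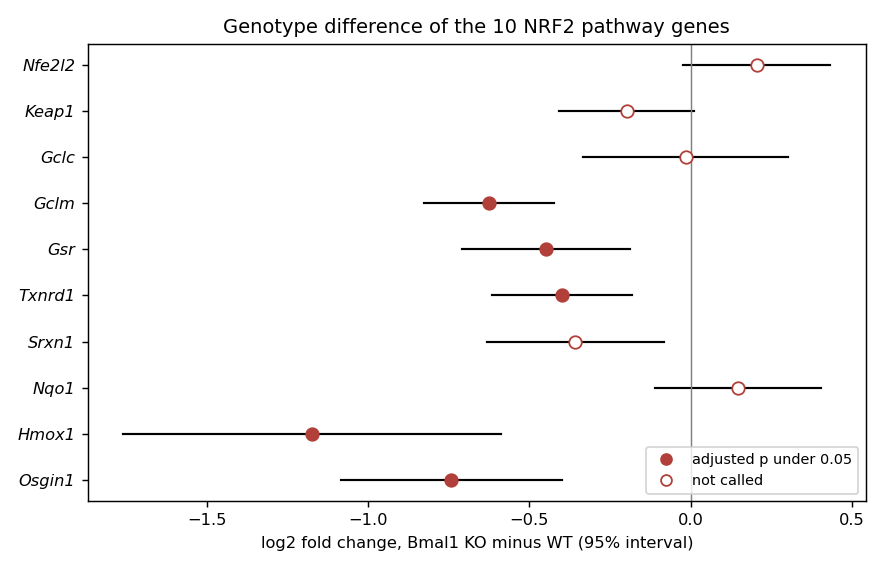
Log2 fold change (Bmal1 KO minus WT) of each of the 10 genes with its 95% interval from limma. Gclm, Osgin1, Hmox1, Txnrd1 and Gsr passed the test as lower, from -0.40 for Txnrd1 to -1.17 for Hmox1, and no gene passed as higher.

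**Figure D3:**
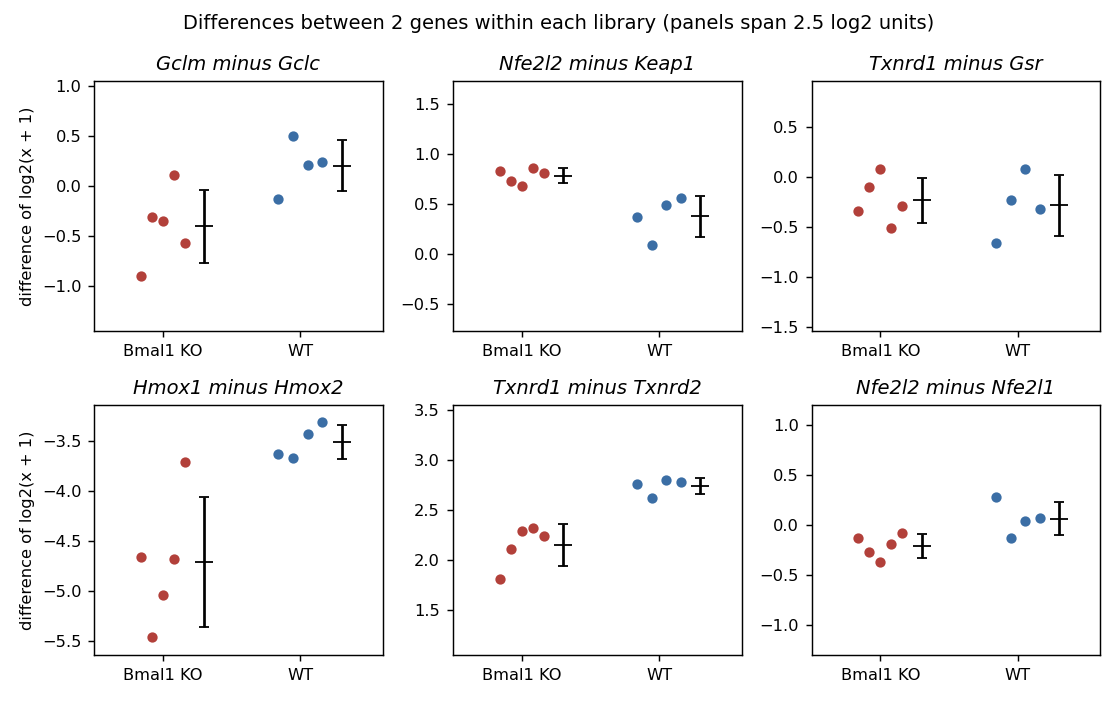
Distance between 2 genes in the same library on the log2(x + 1) scale, Bmal1 KO (5 libraries) left of WT (4 libraries). Nfe2l2 minus Keap1, Hmox1 minus Hmox2 and Txnrd1 minus Txnrd2 separate the genotypes without overlap, while Txnrd1 minus Gsr differed by 0.05 with SE 0.18.

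How far the 5 calls depended on processing differed between genes. Gclm and Osgin1 passed as lower in all 20 alternatives, with log2 fold changes of -0.67 to -0.51 and -0.88 to -0.61. Hmox1 passed in 19 and missed with the Rn45s share as a covariate (-0.85, adjusted p = 0.0922 by limma). Txnrd1 passed in 15, and it missed after quantile normalization (-0.31, 0.0504), after scaling to equal totals (-0.34, 0.0653; -0.29, 0.0763 with Rn45s left out of the total) and with the Rn45s covariate (-0.35, 0.0814). Gsr passed in 10, and besides the libraries named above it missed under 4 other scalings (adjusted p of 0.0515 to 0.0768), a constant prior variance (0.0798) and the Rn45s covariate (-0.34, 0.147). Scaling also moved the whole table. Of all changed genes, 42.9% were higher in Bmal1 KO in the values as deposited and 50.5% after quantile normalization. The share was 56.7% after equal totals, 64.7% after equal totals without Rn45s and 36.3% after upper quartile scaling. With equal totals without Rn45s, the median log2 fold change (Bmal1 KO minus WT) of all tested genes was 0.105.

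**Figure D4:**
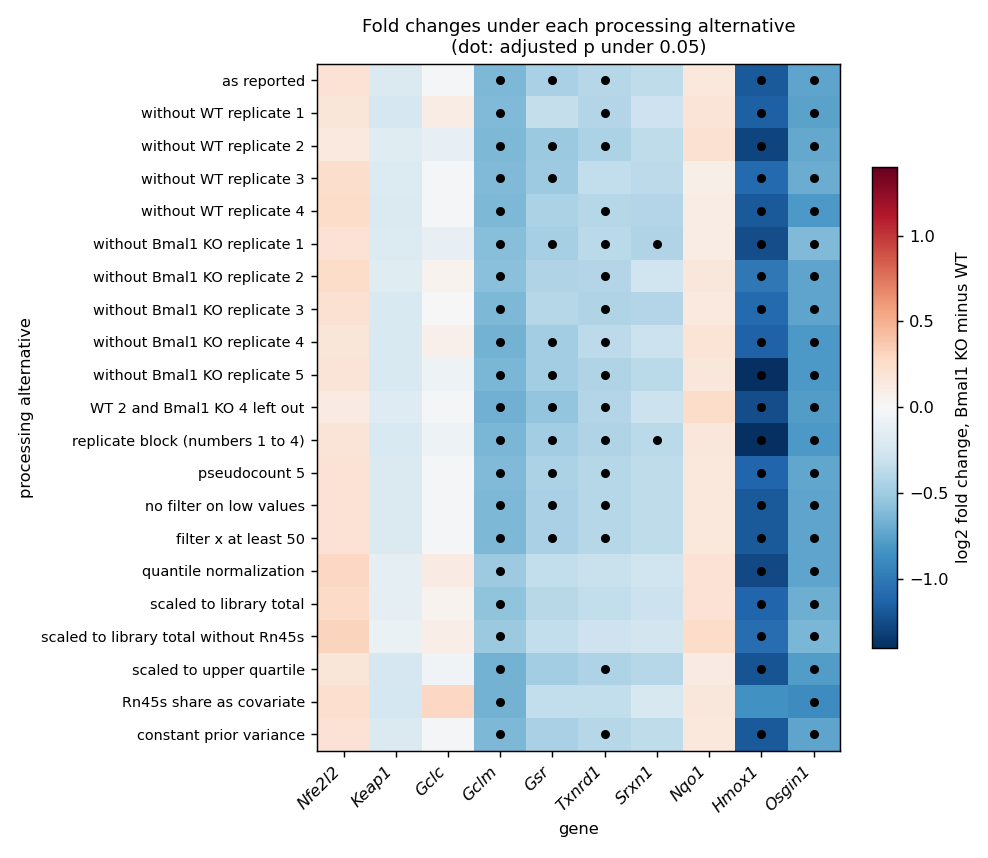
Log2 fold change (Bmal1 KO minus WT) of the 10 genes in the values as deposited and under the 20 alternatives, marked by whether the gene passed the test. Gclm and Osgin1 passed throughout, while Gsr passed in 10 and Txnrd1 in 15.

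Within a genotype the 10 genes did not move closely together. The correlation of their deviations from the genotype mean over the 9 libraries was above 0 in 29 of 45 gene pairs, with a median r of 0.17. It exceeded 0.7 only for Gclc and Srxn1 (r = 0.788) and was lowest for Nfe2l2 and Nqo1 (r = -0.685). The same figures over all tested gene pairs were not computed. The genes whose deviations were most like those of Nfe2l2 among 12694 compared were Mia3 (r = 0.980), Eif2ak3 (0.967), Dennd2c (0.957), Irf2bp2 (0.957) and Eif4g1 (0.955). For Gclm they were Ptpn1 (0.987), Tfeb (0.953), Ccdc97 (0.951), St3gal1 (0.945) and Cecr5 (0.933). These are the highest of many correlations over 9 libraries that share their scaling, and they are given as a description.

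Of 12 partners and regulators of NRF2, 4 fell and 1 rose, with a median log2 fold change of -0.10. Over all tested genes 8.2% were lower and 6.16% higher, and the counts of each list below stand beside these shares. Sqstm1, the p62 adaptor that binds KEAP1 and is itself a target of NRF2, had values of 11.811, 11.471, 11.817, 11.718 and 11.797 in Bmal1 KO libraries, against 12.321, 12.125, 12.244 and 12.102 in WT libraries, without overlap. It fell by 0.48 on the log2 scale (SE 0.10; adjusted p = 0.00382 by limma). Mafg, a small MAF partner, fell by 0.43 on that scale (adjusted p = 0.00843), Dpp3, which binds KEAP1, by 0.47 (0.0143), and Park7, the DJ-1 protein linked to NRF2 stability, by 0.37 (0.0207). Dpp3 missed the threshold without WT library 1 (-0.40, 0.0555), and Park7 without WT library 1 (0.0729), Bmal1 KO library 2 (0.0531) or Bmal1 KO library 4 (0.0555). Without WT library 1 the list thus had 2 genes that fell, and without Bmal1 KO library 4 it had 2 that rose. With the Rn45s share as a covariate, Sqstm1 alone of these 4 passed, and Mafg had an adjusted p of 0.0762, Dpp3 of 0.103 and Park7 of 0.105.

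Nfe2l1, which encodes the related factor NRF1, moved the other way, with values of 10.482, 10.438, 10.693, 10.674 and 10.535 in Bmal1 KO libraries, against 9.769, 10.091, 10.241 and 10.242 in WT libraries. It rose by 0.48 (SE 0.11, adjusted p = 0.00799 by limma), without overlap, and missed after upper quartile scaling (0.44, 0.0577) and with the Rn45s covariate (0.39, 0.0670). Nfe2l2 minus Nfe2l1 averaged -0.21 ± 0.12 (SD, n = 5) in Bmal1 KO and 0.07 ± 0.17 (SD, n = 4) in WT. That difference of -0.27 (SE 0.099) had an exact permutation p of 0.0397, 0.0476 adjusted over the 6. With 1 library left out, the sign of the 5 distances that passed did not turn, but fewer arrangements remain, and the adjusted exact p lay above 0.05 for each of them without most single libraries.

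Of 8 tested genes among other thioredoxin, glutathione and NADPH targets of NRF2, 3 fell and 1 rose (median -0.22), with Gpx2 and Slc7a11 below the filter. Me1, the cytosolic malic enzyme that supplies NADPH, had values of 11.694, 11.559, 11.482, 11.570 and 11.787 in Bmal1 KO libraries, against 12.604, 12.504, 12.670 and 12.512 in WT libraries. The groups lay far apart, and Me1 fell by 48.4% (-0.95, SE 0.097, adjusted p = 1.80e-06 by limma), as it did in all 20 alternatives. Txn1 (thioredoxin, -0.40, 0.0257) and Pgd (an NADPH-producing enzyme of the pentose phosphate pathway, -0.33, 0.0335) were also lower, and Tkt (transketolase of the same pathway) was higher (0.46, 0.0156). Each of these 3 calls was lost when certain single libraries were left out. Txn1 missed without WT library 1 or 4 or Bmal1 KO library 3, 4 or 5 (adjusted p of 0.0553 to 0.0968), Pgd without WT library 1, 3 or 4 or Bmal1 KO library 2, 3 or 4 (0.0619 to 0.0902), and Tkt without WT library 3 (0.0508) or 4 (0.0531). Prdx1 (-0.02, 0.946) and Idh1 (0.03, 0.908) did not pass.

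The detoxification targets of NRF2 moved mostly the other way: of 14 tested, 7 rose and 2 fell, with a median of 0.51, and Gstm3, Aox1 and Abcc3 were below the filter. Gsta2, a glutathione transferase, had values of 12.539, 12.606, 12.567, 12.282 and 12.328 in Bmal1 KO libraries, against 10.859, 10.632, 10.683 and 10.734 in WT libraries, a fold of 3.33 (1.74 on the log2 scale, SE 0.10, adjusted p = 2.07e-09 by limma). Gsta1 was higher by 1.94 (SE 0.17, 3.04e-07), but of the 50-base stretches in the last 500 bases of the transcripts of these genes, 90.0% in Gsta1 and 62.1% in Gsta2 also occur in other genes, so their separate values are uncertain. Cbr1, a carbonyl reductase, rose to 10.97 ± 0.17 (SD, n = 5) in Bmal1 KO, against 9.67 ± 0.13 (SD, n = 4) in WT (1.30, SE 0.11, adjusted p = 1.62e-07). Gsta3 went against its relatives, with 8.77 ± 0.14 (SD, n = 5) in Bmal1 KO and 9.96 ± 0.29 (SD, n = 4) in WT (-1.18, SE 0.13, adjusted p = 7.14e-06). Gstm1, among the most abundant of the list, did not pass (0.21, 0.235). Over the alternatives 5 to 8 genes of the list were higher and 2 lower.

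Among 6 iron and heme targets, 1 fell (16.7%, beside 8.2% of all tested genes) and none rose (median -0.18). Ftl1, the ferritin light chain, was lower (-0.48, adjusted p = 0.0181 by limma), but not without WT library 1 (-0.35, 0.0696) or after quantile (-0.34, 0.0637) or upper quartile scaling (-0.52, 0.0584), and 78.2% of the 50-base stretches at its 3′ end are shared with other genes. Fth1, the ferritin heavy chain, missed at -0.39 (0.0674) but passed as lower without WT library 3 (-0.46, 0.0449), after quantile normalization (-0.51, 0.0260) and with the replicate number as a block (0.0366). Blvrb (-0.28, 0.251) and the iron exporter Slc40a1 (0.23, 0.281) did not pass.

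In a list of the glutathione cycle, kept here apart from the lists of NRF2 targets, 4 of 9 tested genes fell and none rose (median -0.24). Chac1 was below the filter, and 4 fell under every alternative. Whether NRF2 also acts on genes of this list was not tested. Ggt1, the brush border enzyme that begins glutathione breakdown, had 12.30 ± 0.12 (SD, n = 5) in Bmal1 KO and 13.18 ± 0.13 (SD, n = 4) in WT (-0.89, adjusted p = 1.08e-05 by limma). Oplah (5-oxoprolinase, -0.98, 0.000375), Gss (glutathione synthetase, -0.51, 0.00190) and Anpep (an aminopeptidase of the brush border, -0.69, 0.00284) were lower too, and Dpep1 (a brush border dipeptidase, 0.10, 0.580) did not pass. Of 19 antioxidant enzymes not classed here as NRF2 targets, though whether NRF2 acts on them was not tested, 5 fell and none rose (median -0.20). Msrb1 (methionine sulfoxide reductase, -0.73, 7.14e-05), Cat (catalase, -0.68, 0.000365), Sod1 (-0.54, 0.00332) and Prdx6 (-0.44, 0.00526) were among these, while the abundant Gpx3 (-0.08, 0.840) and Gpx1 (0.11, 0.667) did not pass. The share of genes that fell was thus 50% of the 10 NRF2 genes, beside 44.4% of the tested glutathione cycle genes and 26.3% of these other antioxidant enzymes, and no test of a difference between lists was made.

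**Figure D5:**
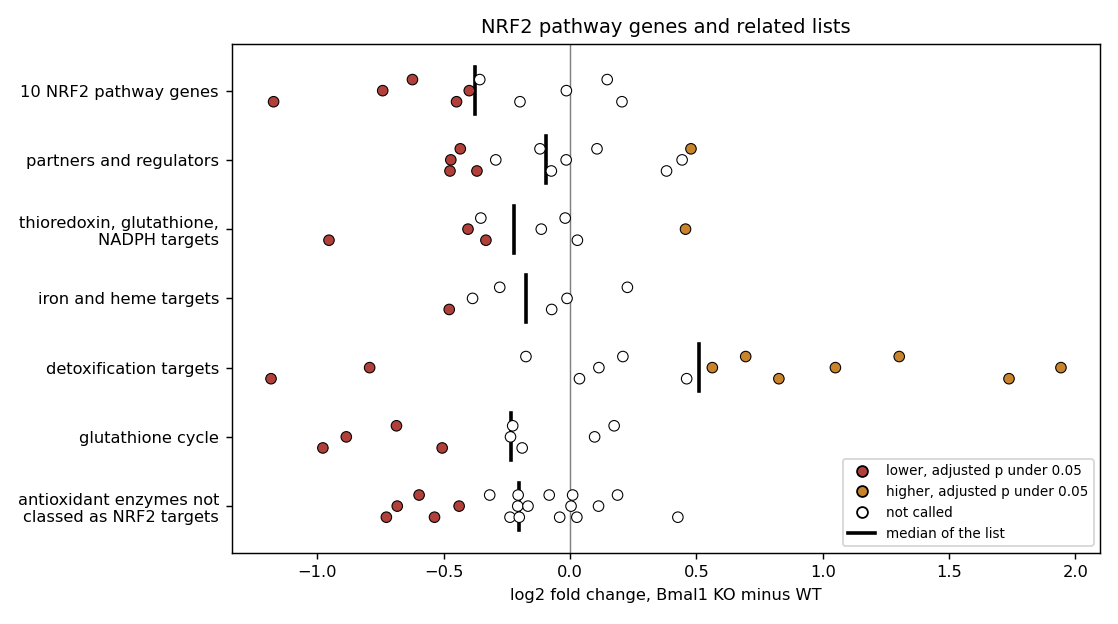
Log2 fold changes (Bmal1 KO minus WT) of the tested genes of each list, with the median of the list as a bar and genes that passed the test marked. The 10 NRF2 genes have a median of -0.38, the other thioredoxin, glutathione and NADPH targets -0.22, and the detoxification targets 0.51.

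Some marker genes of kidney cell types also passed the test, where 8.2% of all tested genes were lower and 6.16% higher. Among the 12 markers of the proximal tubule, 4 fell and 0 rose (median -0.39), and 3 had a positive log2 fold change. Many glutathione enzymes are themselves abundant in this segment. Ggt1 and Anpep among them fell, and the brush border dipeptidase Dpep1 (0.10, adjusted p = 0.580 by limma) did not pass. Of 9 thick limb and distal markers 5 rose (median 0.44), of 6 tested urothelial markers 5 rose (median 1.96), of 6 fibroblast markers 2 rose (median 0.52), of 6 endothelial markers 2 rose (median 0.29), and of 5 podocyte markers 1 rose (median 0.34), with none lower in these 5 lists with all libraries. The summed level of the urothelial list was 66.2 to 107 CPM in Bmal1 KO libraries and 34.5 to 47.2 CPM in WT libraries, and that of the endothelial list 288 to 510 CPM in Bmal1 KO libraries and 222 to 311 CPM in WT libraries. These counts moved with single libraries. Without WT library 2, 7 proximal tubule markers fell, without WT library 1 a single thick limb and distal marker rose, against 2 without WT library 4 or Bmal1 KO library 4 and 3 without Bmal1 KO library 2 or 3, and the podocyte count ran from 0 to 2. In the thick limb and distal list 1 marker was lower without WT library 1 and likewise without WT library 2, and 4 fibroblast markers rose without Bmal1 KO library 1. The part of these differences in the values of the NRF2 genes was not tested.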

How the data were processed

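Kidney RNA of Bmal1 KO (5 libraries) and WT (4 libraries) C57BL/6 mice was sequenced from the 3′ end with the Lexogen QuantSeq kit, per the labels' protocols, which gives about a single tag per transcript. The authors deposited 1 table per library with log2(x + 1) values for 23282 symbols, of which 5113 were at 0 in all libraries. Bowtie2, bedtools and build mm10 are named per the submitters' processing notes; versions, annotation, normalization and strand setting were not given in the sources used here. Values have 3 decimals and whole reads could not be recovered, so precision rests on the 9 libraries.

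Genes with x of at least 10 in at least 4 libraries (13481) entered a limma model (version 3.58.1, R 4.3.3) with genotype as the term, a prior variance following the mean, a two-sided test and Benjamini-Hochberg adjustment over all tested genes (threshold 0.05). Distances between 2 genes were tested by exact permutation. Alternatives covered scaling, pseudocount (5 in place of 1), filter (x of 50), prior variance, Rn45s as a covariate, the replicate number as a block and each library left out.

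The genes and lists were chosen with earlier results of these data known. Named are all 10 NRF2 genes, Arntl, Rn45s, from each list of NRF2 partners, targets and antioxidant enzymes up to 4 tested genes with the smallest adjusted p and the 2 with the highest mean, and for Nfe2l2 and Gclm the 5 genes most like them. Hmox2 and Txnrd2 are named as partners in the tested distances. Csf1r, Kap and genes below the filter were named outside this rule, after their values were seen. Of 10 clock genes, 5 rose and 4 fell (median 0.66). Transcripts were searched for shared 50-base stretches in GENCODE M21, and none of the 10 NRF2 genes shared one in its last 500 bases. Exons of Gclm overlap those annotated for Gm6061 on the same strand and Gm17494 on the opposite strand. Exons of Keap1 overlap Gm16754 on the opposite strand. Sqstm1, Mafg, Gss, Oplah, Hmox2, Txnrd2, Me1, Ftl1, Tkt and Arntl also overlap exons of other genes. Sod1, Gstm1 and Prdx1 share 30.2%, 23.0% and 21.3% of such 50-base stretches with other genes. The values of all these genes are less certain.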

Additional observations from a re-analysis of the deposited data

Results flagged for a closer look

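Values were flagged where the highest or lowest library of a genotype stood far from the others by Dixon's criterion, which flags about 1 in 20 groups by chance; 98 groups were examined and 4 were flagged. Sqstm1 was low in Bmal1 KO library 2, at 11.471 beside 11.718 in the nearest library of that genotype, which lies on the side of its fall. Msrb1 was low in Bmal1 KO library 5, at 10.779 beside 11.054. Gpx1 was low in Bmal1 KO library 2, at 15.461 beside 15.590. The globin share was high in WT library 2, at 1.46% beside 0.690%. None of the 10 NRF2 genes was flagged in either genotype.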

How the results depend on the processing

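Gclm and Osgin1 fell in all 20 alternatives. The count of NRF2 genes that fell, 5 as deposited, was 3 after quantile normalization, equal totals and equal totals without Rn45s. With Rn45s as a covariate it was 2, and 1157 genes changed in all beside 1937. Of all tested genes, 8.2% were lower as deposited, and 6.49%, 5.63%, 5.15% and 4.77% in these settings, in that order. With each library left out, 4 to 6 NRF2 genes fell, beside 6.03% to 9.41% of all tested genes (1416 to 2264 genes changed in all). The count of NRF2 genes that rose stayed at 0. Signs turned in genes that passed in neither case. Gclc was 0.11 after quantile normalization, 0.044 after equal totals, 0.091 without Rn45s in the total and 0.29 with the covariate. Prdx1 was 0.14, 0.039 and 0.086 under the first 3 and 0.059 without WT library 2 and Bmal1 KO library 4. Gpx3 was 0.023 after equal totals without Rn45s, and Idh1 -0.0080 and Hmox2 -0.010 after upper quartile scaling. Without single libraries Gclc ran from -0.12 to 0.099, Prdx1 from -0.12 to 0.079, Idh1 from -0.063 to 0.14 and Hmox2 from -0.046 to 0.10. Of 880 values of 44 named genes, 779 kept direction and side of the threshold, 71 lost the call, 6 gained it and 24 turned sign. The causes were not tested.

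The distances between genes within a library, each with a single library left out, ran from -0.74 to -0.48 for Gclm minus Gclc, 0.31 to 0.46 for Nfe2l2 minus Keap1, -0.076 to 0.17 for Txnrd1 minus Gsr, -1.45 to -1.01 for Hmox1 minus Hmox2, -0.63 to -0.50 for Txnrd1 minus Txnrd2 and -0.34 to -0.20 for Nfe2l2 minus Nfe2l1. Fewer arrangements remain then, and the adjusted exact permutation p of the 5 distances that passed with all libraries ran from 0.0357 to 0.107. Without WT library 2 and Bmal1 KO library 4, Hmox1 minus Hmox2 was -1.26 (adjusted exact permutation p = 0.0686).

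The labels number the libraries of both genotypes, but same-numbered libraries did not deviate together (r of 0.151, 0.000909, -0.00701 and 0.0407), and 1 of 4 Bmal1 KO libraries correlated best with its own number. With the replicate block 1738 genes changed and 6 NRF2 genes fell, Srxn1 being added (-0.38, adjusted p = 0.0464 by limma). Of all tested genes, 7.37% were lower in that fit. Bmal1 KO library 5 has no WT library of its number, so it adds nothing to the genotype difference there. The paired distances were -0.569 for Gclm minus Gclc, 0.397 for Nfe2l2 minus Keap1, -1.45 for Hmox1 minus Hmox2, -0.608 for Txnrd1 minus Txnrd2 and -0.306 for Nfe2l2 minus Nfe2l1, and 4 pairs cannot pass an exact sign-flip test.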
